A study of Sus scrofa with 12 samples.

Results

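The genes described here encode potassium, sodium and chloride channels and their accessory subunits in the longissimus dorsi, the long back muscle of the pig. They were chosen by symbol alone, as KCN, SCN and CLCN genes of the standard families, and the expression table of 23271 genes held 90 of them: 72 potassium channel genes, 11 sodium channel genes and 7 chloride channel genes. Poly(A) RNA was sequenced from 6 libraries of Laiwu pigs, an indigenous Chinese breed with well-marbled meat, and 6 of Yorkshire pigs, a lean Western breed, with body weight matched between the breeds. The animals' age, sex and rearing were not given in the labels used here, and no treatment or genotype is named. Nothing in the labels ties each library to a separate animal, and the p-values therefore rest on the spread among 12 libraries, which may be technical.

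Ion channels set the electrical behaviour of the muscle fibre. Voltage-gated sodium channels carry the upstroke of the action potential along the fibre and into the transverse tubules. Potassium channels bring the membrane back to rest, and the chloride channel ClC-1, which provides most of the resting conductance of skeletal muscle, damps repeated firing. Defects of these channels cause the myotonias and periodic paralyses. Many KCN genes are better known from nerve, heart or smooth muscle, and accessory subunits alter the gating or the trafficking of the pores they bind.

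Gene counts summed to between 54961358 and 67285809 per library. Where no count was seen, up to 3 counts, or 0.0446 to 0.0546 CPM (counts scaled to library size), are allowed by counting error alone. All 7 muscle fibre markers that were measured were abundant, with ACTA1, the skeletal actin, between 34172.5 and 50541.3 FPKM (fragments scaled to gene length and library size), and the 3 measured neuron markers RBFOX3, SYT1 and NEFL summed to at most 0.345 FPKM in any library. Yorkshire 5 stood apart from the others: its deviations from the breed mean followed gene length across the 11205 tested genes with a Spearman's rho of -0.417, where the other libraries lay between -0.153 and 0.231. Across the 31 tested channel genes that rho was -0.261, and Yorkshire 5 did not stand apart there. The other libraries lay between -0.269 in Laiwu 3 and 0.184 in Yorkshire 2. Yorkshire 5 had the lowest value of all 12 libraries for 8 of these genes and the highest for 4. No other library was lowest for more than 3, and Laiwu 6 was highest for 6.

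Of the 90 channel genes, 31 reached 0.5 FPKM on average and were tested. The levels fell off steeply: 4 genes reached 10 FPKM and 24 reached 1 FPKM. Of the 59 genes under the minimum, 46 were below 0.1 FPKM on average. Each of the 90 had at least 1 count in some library, and 45 had none in at least 1 library. In whole muscle, fewer cells of a type and less RNA per cell cannot be told apart.

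No channel gene passed the test of breed. With Benjamini-Hochberg adjustment over all tested genes, the quasi-likelihood test of edgeR called 0 of 31, with a background of 0% (0 of 11205), and adjusted p-values ran from 0.912 to 0.999. At an unadjusted p under 0.05 there were 0 of 31 by edgeR, where 4.44% of all tested genes fell there. By DESeq2 there were also 0 of 31, where 569 of all 11205 tested genes fell there. DESeq2 called 0 of 31 after adjustment as well (background 0.00892%), and so did limma on log2(FPKM + 1) (background 0%). The 6 libraries of one breed lay apart from the 6 of the other for 0 of the 31 genes (background 0.178%). By edgeR 13 log2 fold changes, Laiwu minus Yorkshire, were above 0 and 18 below (49.7% of all tested genes were above 0), with a median of -0.01 beside -0.0013 over all tested genes. By limma 19 were above 0 (background 54.6%), with a median of 0.02, so the median had a different sign by the 2 methods. Without Yorkshire 5 the edgeR median was -0.10. An absolute log2 fold change of at least 0.5 was fitted for 3 of the 31 (background 4.04%), namely KCNIP2, KCNE4 and KCNJ14. Standard errors ran from 0.10 to 0.53 with a median of 0.26, against 0.16 over all tested genes.

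**Figure D1:**
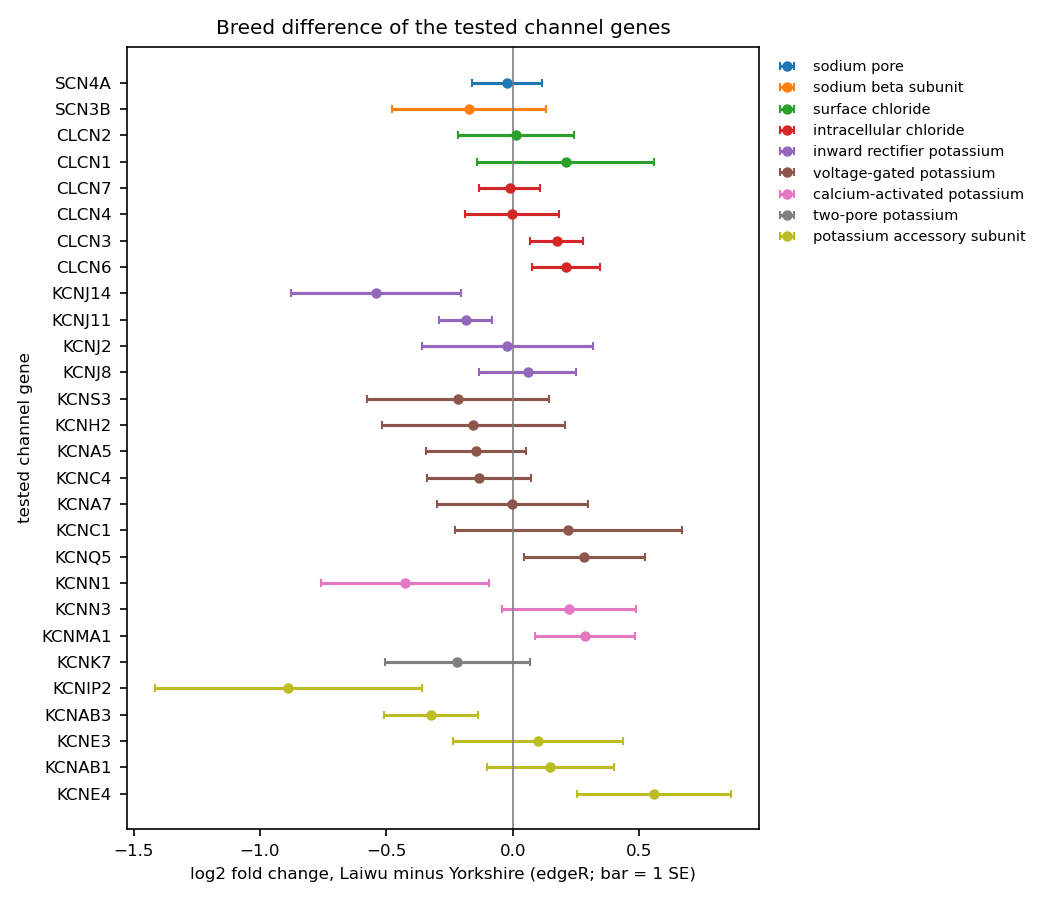
log2 fold change between the breeds (horizontal axis, Laiwu minus Yorkshire, edgeR, bars of 1 SE) for 28 of the 31 tested channel genes, ordered and coloured by role. The values lie between -0.89 for KCNIP2 and 0.56 for KCNE4, on both sides of 0 for potassium channels, and none passed the test.

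The sodium channel pore of the adult fibre was among the 4 channel genes over 10 FPKM. SCN4A, the pore-forming subunit of the skeletal muscle sodium channel (Sscrofa11.1 chromosome 12, 15002175 to 15047582), had Laiwu values of 35.9, 39.3 and 51.0 FPKM (lowest, median and highest, the order used throughout) and Yorkshire values of 28.4, 40.7 and 52.3 FPKM. All Laiwu values lay within the Yorkshire range, whose lowest value was that of Yorkshire 5. Its log2 fold change of -0.02 ± 0.14 (SE) had an adjusted p of 0.984, and the sign changed under other settings.

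SCN3B, a beta subunit of sodium channels, had a Laiwu mean of 3.93 ± 1.55 and a Yorkshire mean of 4.45 ± 2.17 FPKM (SD of 6 libraries, as in the pairs of means that follow, Laiwu given first). Of the 8 pore genes, SCN4A was the only member at or over 0.5 FPKM. SCN1A, a pore of nerve, averaged 0.0991 FPKM.

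CLCN1, which encodes ClC-1 (chromosome 18, 6902542 to 6940449), split the libraries into sets that each held both breeds. Laiwu 5, Yorkshire 3 and Yorkshire 5 stood at 5.13, 3.75 and 3.83 FPKM, and the 9 other libraries between 9.65 and 15.5 FPKM. The Laiwu mean was 10.5 ± 3.35 and the Yorkshire mean 8.82 ± 4.06 FPKM. A log2 fold change of 0.21 ± 0.35 (SE, adjusted p = 0.949) was fitted, from 0.04 without Yorkshire 3 to 0.39 without Yorkshire 2. CLCN1 overlaps FAM131B on the other strand. CLCN2, the other chloride channel of the cell surface, averaged 0.710 ± 0.146 and 0.684 ± 0.182 FPKM, and it overlaps FAM131A on the other strand.

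The remaining CLCN genes encode proteins of endosomes and lysosomes, most of them exchangers of chloride for protons. Of the 4 tested, CLCN3, CLCN6 and CLCN7 were among the 4 genes of smallest spread between libraries. CLCN4 (X chromosome, 6939387 to 7019738) ran through 4.42, 6.03 and 7.33 FPKM in Laiwu and 3.79, 5.86 and 8.36 FPKM in Yorkshire, a log2 fold change of -0.0020 ± 0.19 (adjusted p = 0.999). CLCN7, the lysosomal exchanger, ran through 1.99, 2.49 and 2.67 FPKM and 1.93, 2.30 and 3.02 FPKM, a log2 fold change of -0.01 ± 0.12 (adjusted p = 0.992). The signs of both changed under other settings. CLCN3, an endosomal exchanger, ran through 2.66, 3.20 and 3.86 FPKM in Laiwu and 2.30, 2.82 and 3.56 FPKM in Yorkshire. The ranges overlapped for most libraries, and the log2 fold change was 0.18 ± 0.10 (adjusted p = 0.912). CLCN3 overlaps HPF1 on the other strand. Whether the counting told strands apart was not stated, so reads of these 3 overlapping pairs may be shared. CLCN6 averaged 1.11 ± 0.186 and 0.948 ± 0.158 FPKM. CLCN5 was under the minimum, at a mean of 0.245 FPKM.

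Inward rectifiers pass potassium most readily near rest. KCNJ11, the Kir6.2 pore of the ATP-sensitive (KATP) channel, which ties excitability to the energy state of the fibre (chromosome 2, 41757356 to 41765555), was the most abundant potassium channel gene. It ran through 18.6, 22.3 and 25.1 FPKM in Laiwu and 21.6, 25.0 and 29.0 FPKM in Yorkshire. Its log2 fold change of -0.19 ± 0.10 (SE) had the second smallest p of the 31 genes, 0.0953 before and 0.912 after adjustment. The value stayed between -0.23 and -0.14 when any single library was left out. KCNJ8, the Kir6.1 pore best known from blood vessels, averaged 3.05 ± 0.587 and 2.91 ± 0.920 FPKM. Of the sulfonylurea receptors that complete the KATP channel, ABCC9 (SUR2) averaged 9.42 ± 1.86 and 7.46 ± 3.01 FPKM, with a log2 fold change of 0.32 ± 0.26 (adjusted p = 0.912). ABCC8 (SUR1) averaged 0.138 FPKM over all 12 libraries.

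KCNJ2, the Kir2.1 rectifier that holds the resting potential and is mutated in Andersen-Tawil syndrome, had libraries at separate levels in both breeds. It ran through 3.36, 3.76 and 6.80 FPKM in Laiwu and 1.62, 4.69 and 6.80 FPKM in Yorkshire. Laiwu 2, Laiwu 4 and Yorkshire 1, 2 and 4 stood at 6.17 FPKM or more, and every other library at 3.93 FPKM or less. Its log2 fold change of -0.02 ± 0.34 (adjusted p = 0.997) changed sign under other settings. KCNJ14, a further Kir2 member, averaged 0.728 ± 0.338 and 1.04 ± 0.374 FPKM. KCNJ12 was not analysed here.

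Among voltage-gated potassium channels, KCNA7, a Kv1 pore of skeletal muscle (chromosome 6, 54278887 to 54282209), ran through 10.4, 14.2 and 19.4 FPKM in Laiwu and 4.31, 17.4 and 18.7 FPKM in Yorkshire. The 4.31 FPKM was Yorkshire 5 and the next lowest Yorkshire value was 9.66 FPKM. Between breeds the log2 fold change was -0.0013 ± 0.30 (SE, adjusted p = 0.999), from -0.19 without Yorkshire 5 to 0.12 without Yorkshire 2. KCNQ5, a pore of slow M-type currents (chromosome 1, 52435235 to 52939823), ran through 4.84, 6.75 and 9.35 FPKM in Laiwu and 2.82, 6.27 and 7.41 FPKM in Yorkshire, again with Yorkshire 5 lowest. Its log2 fold change was 0.28 ± 0.24 (adjusted p = 0.912), and 0.15 without Yorkshire 5.

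KCNS3, a silent voltage-gated subunit that modifies other pores, averaged 4.15 ± 1.52 and 4.77 ± 2.72 FPKM. KCNH2, the hERG channel of cardiac repolarisation, averaged 4.22 ± 2.09 and 4.62 ± 1.51 FPKM. KCNC4, the Kv3.4 pore, ran through 0.584, 0.778 and 1.34 FPKM in Laiwu and 0.817, 0.881 and 1.19 FPKM in Yorkshire. The Laiwu values spanned all of the Yorkshire values, and the log2 fold change was -0.13 ± 0.20 (adjusted p = 0.940), from -0.30 without Laiwu 4 to -0.04 without Laiwu 5. KCNA5 averaged 0.989 ± 0.179 and 1.08 ± 0.290 FPKM, and KCNC1 0.671 ± 0.520 and 0.564 ± 0.254 FPKM.

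Of the 5 calcium-activated channel genes, 3 were tested. KCNN3, the SK3 channel that reappears in fibres after loss of their nerve, ran through 1.06, 1.92 and 3.13 FPKM in Laiwu and 0.994, 1.61 and 2.79 FPKM in Yorkshire. Its log2 fold change of 0.22 ± 0.26 (SE, adjusted p = 0.920) was 0.04 without Laiwu 2. KCNMA1, the large-conductance BK pore, ran through 1.05, 1.27 and 2.03 FPKM in Laiwu and 0.737, 1.17 and 1.42 FPKM in Yorkshire. Laiwu 6 held the 2.03 FPKM, and the log2 fold change of 0.29 ± 0.20 (adjusted p = 0.912) was 0.16 without it. KCNN1, an SK relative, averaged 0.974 ± 0.449 and 1.29 ± 0.620 FPKM. The only tested gene of the two-pore potassium channel family, KCNK7, averaged 2.38 ± 1.03 and 2.76 ± 0.937 FPKM.

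**Figure D2:**
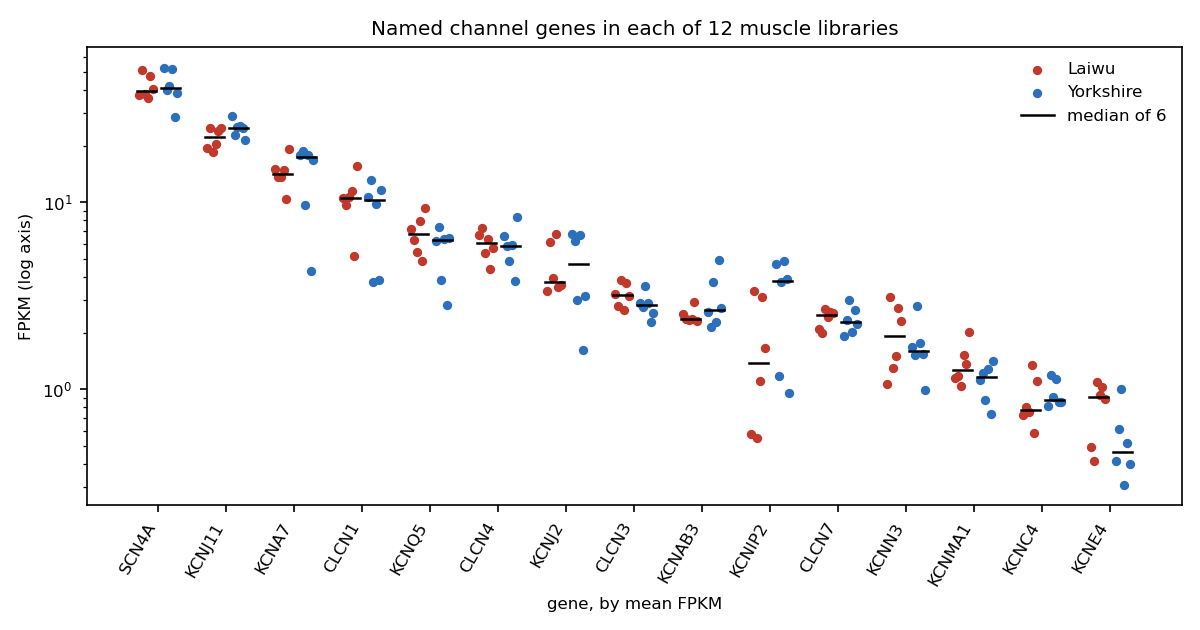
FPKM (vertical log axis) of the 15 channel genes described here with a fold change, in each of the 6 Laiwu and 6 Yorkshire libraries, with a bar at the median of each breed and genes in order of mean FPKM. The breeds overlap for every gene shown, and the KCNIP2 libraries spread from 0.550 to 4.83 FPKM.

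Accessory subunits held the 2 fitted changes farthest from 0. KCNIP2, which encodes the calcium-binding KChIP2 subunit of Kv4 channels (chromosome 14, 112857062 to 112876439), ran through 0.550, 1.39 and 3.35 FPKM in Laiwu and 0.954, 3.80 and 4.83 FPKM in Yorkshire. The libraries fell into 6 between 0.550 and 1.66 FPKM, of which 4 were Laiwu, and 6 between 3.11 and 4.83 FPKM, of which 2 were Laiwu. The log2 fold change was -0.89 ± 0.53 (SE), with a p of 0.117 before and 0.912 after adjustment, and it ran from -1.20 without Laiwu 2 to -0.70 without Laiwu 3. Its within-breed SD of 1.05 on the log2 CPM scale was the highest of the 31 genes, and 2.30% of all tested genes had an SD at least as high. KCNE4, a small subunit that inhibits several Kv channels, had the smallest p of the 31, 0.0873 before and 0.912 after adjustment. It ran through 0.414, 0.909 and 1.09 FPKM in Laiwu and 0.310, 0.465 and 1.01 FPKM in Yorkshire. Of the Laiwu libraries 4 stood at 0.888 FPKM or more, as did Yorkshire 3. The log2 fold change was 0.56 ± 0.30, or 0.23 by limma on log2(FPKM + 1), a scale that understates changes of low genes.

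KCNAB3, a beta subunit of Kv1 channels, ran through 2.33, 2.38 and 2.94 FPKM in Laiwu and 2.16, 2.66 and 4.91 FPKM in Yorkshire. The 4.91 FPKM was Yorkshire 5, and the log2 fold change of -0.32 ± 0.19 (adjusted p = 0.912) was -0.11 without it. KCNAB1 averaged 0.841 ± 0.391 and 0.753 ± 0.204 FPKM. KCNE3, a partner of Kv3.4 in skeletal muscle, averaged 0.567 ± 0.289 and 0.522 ± 0.205 FPKM. KCNE1, a partner of KCNQ1, was under the minimum, with a Laiwu median of 0.186 and a Yorkshire median of 0.111 FPKM, and it reached 1.87 FPKM in Yorkshire 3.

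Genes under the minimum were not part of the main test. With no minimum, edgeR called 0 of the 90 channel genes and 4 had an unadjusted p under 0.05 (background 7.37% of 23271 genes). They were chosen for description after their values were seen. KCNK3, the acid-sensitive leak channel TASK-1, was the only one of the 59 whose breeds did not overlap, where 0.0912% of all genes under the minimum were so. Each Laiwu library held 16 to 46 counts of it (0.148 to 0.425 FPKM), against 0 to 14 counts in Yorkshire (0 to 0.129 FPKM), where 4 of the 6 libraries had none. Its unadjusted p was 0.00785 and its adjusted p 0.499. KCNMB1, the smooth muscle beta subunit of the BK channel, held 8 to 36 counts in Laiwu and 20 to 76 in Yorkshire, with an adjusted p of 0.499. All 6 smooth muscle and pericyte markers were measured, and they summed to 68.6 to 107.7 FPKM in Laiwu and 67.1 to 119.4 FPKM in Yorkshire. Adipocyte markers, 4 of 4 measured, summed to 15.2 to 110.7 FPKM in Laiwu and 6.26 to 37.0 FPKM in Yorkshire. The part of either cell type in KCNK3 or KCNMB1 was not tested. KCNMB4, a beta subunit of nerve, held 10 to 57 and 4 to 22 counts. KCNJ13 held at most 6 counts in any library.

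Channel genes varied among libraries of the same breed. Their median within-breed SD was 0.49 on the log2 CPM scale and that of all tested genes 0.28, and 25 of the 31 lay above the latter. The channel genes were also lower, with a median of 2.78 FPKM against 3.77 FPKM, and the part of level in the spread was not tested. KCNJ11 (0.16), CLCN3 (0.16), CLCN6 (0.19) and CLCN7 (0.20) had the smallest SDs of the 31. KCNIP2 (1.05), KCNC1 (0.86), KCNH2 (0.74), CLCN1 (0.72) and KCNS3 (0.71) had the largest.

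**Figure D3:**
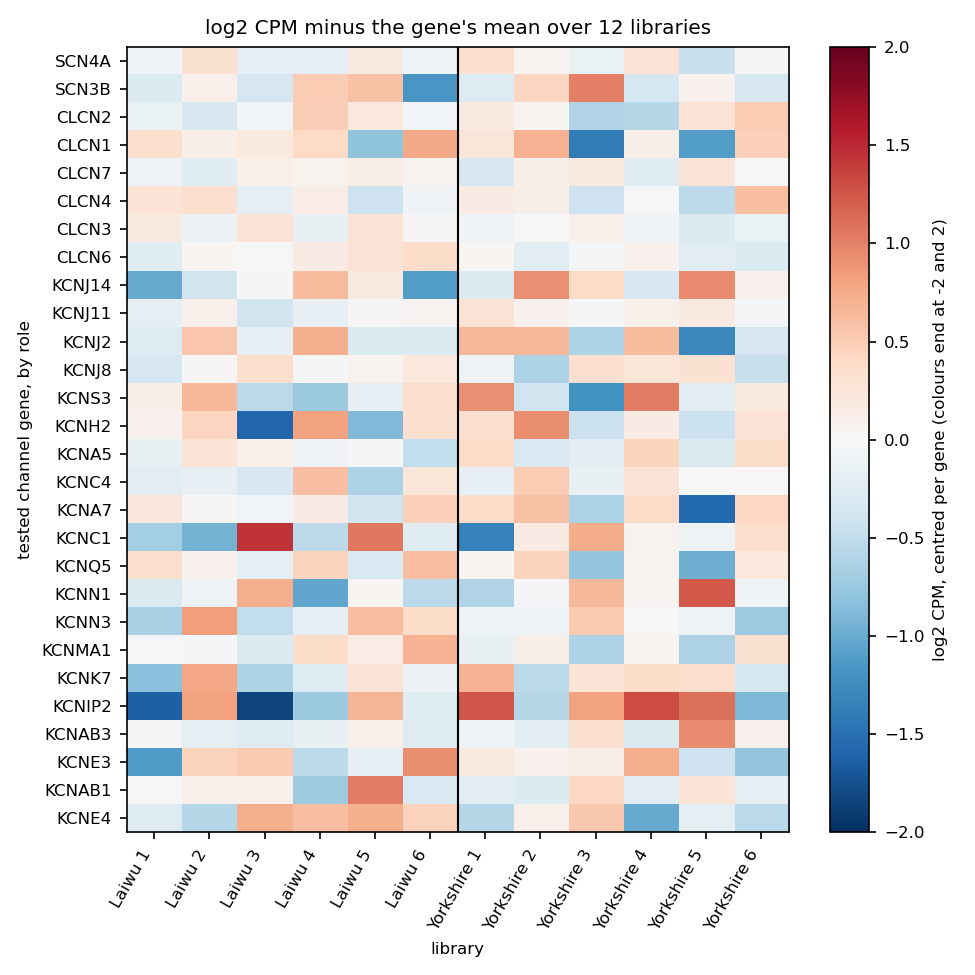
log2 CPM of 28 of the 31 tested channel genes (rows, by role) in each library (columns, Laiwu left and Yorkshire right of the line), minus the gene's mean over the 12 libraries. CLCN1, KCNA7 and KCNQ5 are low together in Laiwu 5, Yorkshire 3 and Yorkshire 5.

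Relations between channel genes were computed on log2 CPM after removal of the breed mean, with libraries permuted within breeds. For 8 of the 31 genes, KCNIP2 and CLCN1 among them, the libraries fell into separate sets, and these genes were left out of the pooled relations. The share of all tested genes with such sets was not computed, so the count is not read as a trait of channel genes. Among the 253 pairs of the other 23 genes, 20 (7.91%) had an absolute r of at least 0.7, where 6.31% of all pairs of tested genes did. A single pair passed the adjustment over 253 pairs by both measures, KCNA7 with KCNQ5, the Kv1 and M-type pores. Their Pearson's r was 0.93 (permutation p = 2e-05, adjusted 0.00506) and Spearman's rho 0.90 (permutation p = 0.00013, adjusted 0.0329, n = 12). The r was 0.94 within Laiwu and 0.96 within Yorkshire, 0.95 without Yorkshire 5, and 0.92 without the 2 libraries farthest from the median of KCNA7. By rank alone KCNQ5 also passed with KCNMA1, at a rho of 0.94 (permutation p adjusted 0.0380) beside an r of 0.85 (adjusted 0.0810), and with KCNAB1, at a rho of -0.88 (permutation p adjusted 0.0472) beside an r of -0.76 (adjusted 0.0658). An absolute r as high as that of KCNA7 and KCNQ5 to KCNA7 was reached by 0.393% of the other tested genes, and to KCNQ5 by 0.330%, so other genes of the muscle followed each of them as closely.

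CLCN1 was lowest in the same 3 libraries as KCNA7 and KCNQ5, namely Laiwu 5, Yorkshire 3 and Yorkshire 5. For the 8 genes with separate sets, every relation with another tested channel gene was computed within each set of at least 6 libraries, on log2 CPM with the breed mean left in. None of these 270 relations passed the adjustment over all of them (smallest adjusted exact permutation p 0.443 by r and 0.308 by rho), and 26 had an unadjusted p under 0.05 by r. Within the 9 libraries of higher CLCN1, the r farthest from 0 were those with KCNQ5 at 0.82, KCNA5 at -0.78 and KCNMA1 at 0.76 (exact permutation p adjusted 0.443 for each). With KCNQ5 the rho was 0.78, and r was 0.63 without the 2 libraries farthest from the median. With KCNA7 the r was 0.67 (exact permutation p adjusted 0.470). The slow fibre score, the mean of 5 slow fibre genes on the same centred scale, was 0.73 in Laiwu 5, -0.07 in Yorkshire 3 and 0.73 in Yorkshire 5. None of the 23 genes followed that score after adjustment. The r farthest from 0 were those of KCNK7 at 0.67 (permutation p = 0.0298, adjusted 0.412) and KCNN3 at 0.59 (permutation p = 0.0898, adjusted 0.468). KCNA7 had an r of -0.49 (permutation p = 0.0376, adjusted 0.412) and KCNQ5 of -0.53 (permutation p = 0.0537, adjusted 0.412).

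The 6 libraries with most KCNIP2 were also the 6 with most KCNK7. KCNK7 lay between 2.84 and 4.11 FPKM in them and between 1.27 and 2.29 FPKM in the others. Within the lower set r was 0.81 (exact permutation p = 0.0528, adjusted over the 270 relations 0.470, n = 6) and 0.47 without the 2 libraries farthest from the median. Within the upper set it was 0.18 (exact permutation p = 0.606, adjusted 0.870, n = 6). KCNK7 was chosen after its values were seen, and in the lower set CLCN1 (r of 0.92), KCNMA1 (0.89) and KCNJ11 (0.88) followed KCNIP2 more closely, none past the adjustment.

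**Figure D4:**
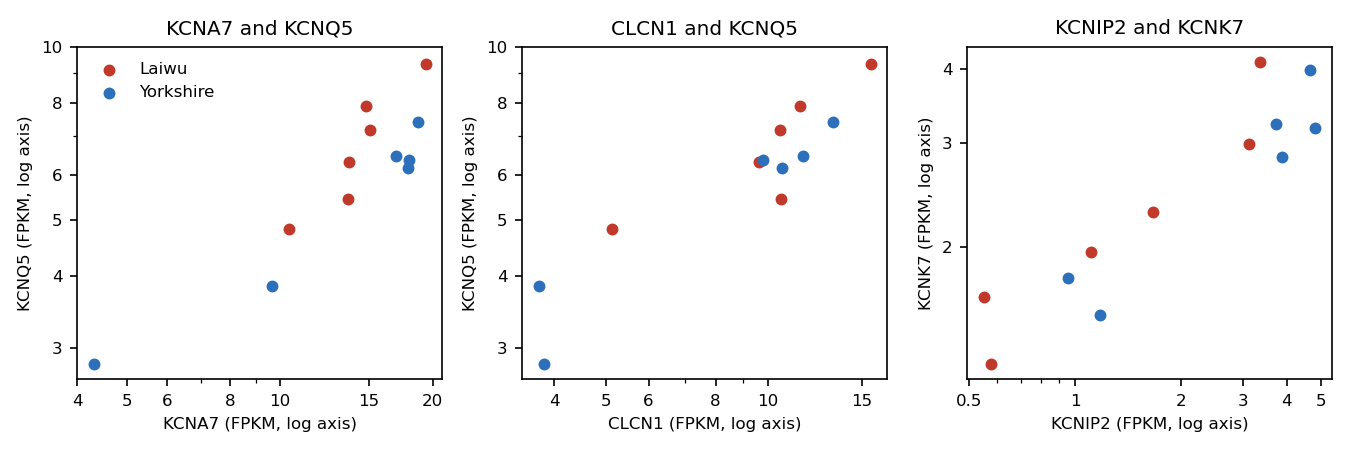
FPKM of KCNQ5 against KCNA7, of KCNQ5 against CLCN1 and of KCNK7 against KCNIP2 (log axes), with a point for each of the 12 libraries coloured by breed. KCNQ5 is higher where KCNA7 is higher within both breeds, 3 libraries stand below 6 FPKM of CLCN1, and KCNIP2 leaves a gap between 1.66 and 3.11 FPKM.

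Genes that work with these channels were read from the same fit. Of 50 such genes listed by role, 40 were measured and 32 tested. None was called by edgeR (background 0%), and 0 had an unadjusted p under 0.05 (background 4.44%), with 17 fold changes above 0, 15 below and their median at 0.02 on the log2 scale. HCN2, a cation channel best known as a pacemaker of heart and nerve, averaged 14.2 ± 2.72 and 16.7 ± 3.17 FPKM, with a log2 change of -0.24 ± 0.14 (adjusted p = 0.912). Among other chloride channel and related genes, 14 were tested and 7 fold changes lay on each side of 0. CLIC5 and ANO5 were the highest of them, at a mean of 69.96 and 46.1 FPKM.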

How the data were processed

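Poly(A) RNA libraries that mark strand with dUTP were made from 12 muscle samples, per the labels' protocols. Per the series' design text the authors aligned reads with HISAT2 2.2.1 to Sscrofa11.1 after read filtering. StringTie 1.3.4d, cutadapt 1.9, edgeR and DESeq2 appear in the submitters' processing notes with no role stated. Annotation release, counting tool and use of strand were not given in the sources used here. The deposited table gives FPKM and a raw count for every gene in every library, per the file headers. All its value columns were matched to samples by title.

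Counts of the 11205 genes that averaged 0.5 FPKM or more were tested with edgeR 4.0.16 (TMM, robust quasi-likelihood, no covariate), Laiwu minus Yorkshire, two-sided, with Benjamini-Hochberg adjustment over all of them and a threshold of 0.05. The SE is the fold change over the root of its F statistic. limma 3.58.1, DESeq2 1.42.0 and R 4.3.3 served for alternatives, Python 3.11.15 for the relations, with 100000 permutations over the 12 libraries and every permutation within a set. Libraries counted as separate sets where the widest gap in log2 CPM exceeded 0.25 of the range with at least 3 libraries on each side, a rule set after the data were seen. On counts simulated with the same means and dispersions, 72% of 200 genes changed 2-fold were recovered, and 8.5% of those changed 1.5-fold. Genes were drawn independently of each other. The changed genes came from all tested genes, whose median SE was 0.16 against 0.26 for the channel genes. With 200 changed genes the adjustment is also more lenient than in the real fit, which called 0. Recovery among channel genes was not simulated, so these shares do not exclude 2-fold changes in them.

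The members and gene lists were chosen with earlier results of these data known. The genes chosen for a fold change were a panel of 16 by role (11 tested), the 8 tested of highest mean FPKM and the 6 of smallest p, 17 in all, 15 of them described. A few further genes were left unreported. Any other gene is given by its level, or was chosen after its values were seen. A single row without a symbol in the deposited table, which a gene name table pairs with such a symbol, was left out by the rule.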

Additional observations from a re-analysis of the deposited data

Results flagged for a closer look

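Of 62 groups of 6 libraries (31 tested genes in each breed), 4 held a library whose gap to the nearest other exceeded 0.625 of the group's range, 3 of which are given here, and chance alone flags about 1 in 20 groups. SCN3B was at 8.66 FPKM in Yorkshire 3, with the next at 4.85 FPKM. KCNAB1, at 1.58 FPKM against 0.850 FPKM, and KCNAB3, at 2.94 FPKM against 2.52 FPKM, were highest in Laiwu 5.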

How the results depend on the processing

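The count of channel genes called was 0 under every alternative run, namely DESeq2, RLE size factors, no minimum level, a minimum of 1 FPKM, limma with a pseudocount of 1 or 0.1, the replicate block and each library left out. The count of genes whose breeds do not overlap was 0 in the main form, on log2 CPM and with each library left out. All 90 genes were tested with no minimum and 24 with a minimum of 1 FPKM. With 1 library left out, the median log2 fold change ran from -0.10 without Yorkshire 5 to 0.041 without Yorkshire 1, and by limma with a pseudocount of 0.1 it was 0.042. Of the 17 genes chosen by rule, 12 kept their sign under each of these that tested them (KCNC4 and KCNE4 lie under 1 FPKM). The other 5, all near 0, did not, and the cause was not tested. By limma with a pseudocount of 1 and 0.1, SCN4A was at 0.0062 and 0.0067, KCNJ2 at 0.068 and 0.11, KCNA7 at 0.14 and 0.16, CLCN7 at 0.011 and 0.017, and CLCN4 at 0.034 and 0.042. With a minimum of 1 FPKM KCNA7 was at 0.0020 and CLCN4 at 0.0018. With 1 library left out, SCN4A ran from -0.10 to 0.041, KCNJ2 from -0.19 to 0.12, KCNA7 from -0.19 to 0.12, CLCN7 from -0.071 to 0.042 and CLCN4 from -0.093 to 0.14. The labels number libraries 1 to 6 in both breeds but tie no pairs, and same-numbered libraries' deviations correlated from -0.27 to 0.33. With that replicate block 0 channel genes were called, the median log2 fold change was 0.02, and KCNJ2, KCNA7 and CLCN4 were at 0.095, 0.14 and 0.025.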

Other observations

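Pores and the subunits known to bind them were not always present at like levels. KCNIP2 averaged 2.47 FPKM, while the 3 Kv4 pores that its product binds, KCND1, KCND2 and KCND3, averaged 0.0166, 0.00818 and 0.0202 FPKM on at most 22 counts in any library. DPP6, another Kv4 partner, averaged 0.0246 FPKM. By contrast the Kv3.4 pore gene KCNC4 and its partner KCNE3 averaged 0.922 and 0.545 FPKM. These genes were set side by side after their values were seen.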
